A study of Mus musculus with 12 samples.

Results

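Kupffer cells and other macrophages were followed through 34 marker genes in mouse liver, out of 26405 genes that could be tested on the arrays. The genes were named by symbol as known markers, and no threshold on these arrays chose them: 9 genes that mark resident Kupffer cells, 9 that mark recruited monocytes and the macrophages derived from them, and 16 that macrophages share with other myeloid cells. All 34 were measured, each by the brightest of its probes (45 probes in all). The livers came from male mice 7 weeks old that were fasted for 8 h before collection. Akp3-/- knockout mice given IIAEK, Akp3-/- knockout mice given vehicle, wild-type mice given IIAEK and wild-type mice given vehicle made up the 4 groups, with 3 arrays in each. Akp3 encodes an intestinal alkaline phosphatase (IAP), and IIAEK is a short cholesterol-lowering peptide named by the letters of its residues. The peptide was given by mouth at 600 mg/kg of body weight per day in carboxymethylcellulose (5 g/L), once daily over 14 days, and vehicle mice received the carboxymethylcellulose alone. The labels do not say in which cells or by which allele Akp3 was removed, give no strain, and number the replicates without tying them to animals, so p-values measure the spread between these samples.

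Kupffer cells are the macrophages that live in the liver sinusoids, where they clear bacteria, red cells and particles from portal blood. They descend largely from embryonic precursors and carry surface receptors such as the lectin Clec4f and the phosphatidylserine receptor Timd4. When the liver is injured or loaded with lipid, blood monocytes enter through the chemokine receptor Ccr2 and turn into macrophages, some of which express Trem2 and Gpnmb. In whole tissue, fewer cells of a type and less RNA per cell cannot be told apart.

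Levels are the log2 of the array's background-subtracted signal minus the array's 75th percentile, so 0 is the 75th percentile of the probes on that array. The level of one gene cannot be set against that of another, because each has its own probe. The 75th percentile ran from 314.6 to 529.4 signal units, and the share of probes that the software marked as well above background was between 56.8% and 61.91%. Along the first principal component, which held 55.37% of the variance of all genes, 4 vehicle arrays stood apart: knockout vehicle 1 and 3 and wild-type vehicle 2 and 3 (74.13 to 88.09, against -57.34 to -11.3 on the other 8 arrays). Wild-type vehicle 1 carried pancreas transcripts, with a list median 2.32 above the genes' own 12-array means. The intestinal list had medians of 1.83, 4.46 and 1.23 on the 3 wild-type vehicle arrays. Of its genes, Muc2, Sis, Lct, Lypd8 and Itln1 were above background on all 3 arrays in wild-type vehicle alone. They entered the tested genes through that group, so these medians lean towards it. Replicate 1 of each group was on slide 1 and replicates 2 and 3 were on slide 2. The targeted gene could not check the labels, since its 2 probes were above background on 0 of 12 arrays. All 6 hepatocyte genes and all 9 resident Kupffer cell markers were above background on all 12 arrays. The only one of the 34 genes that was not was Spi1, the gene for the myeloid transcription factor PU.1, which was above background on 8 arrays.

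The macrophage genes differed widely in how much they varied from array to array. Gpnmb, a glycoprotein of lysosome-rich macrophages, spanned 9.19 log2 units over the 12 arrays, a 586-fold range. Trem2, a lipid-sensing receptor, spanned 4.96, and Cx3cr1, the fractalkine receptor of monocytes, spanned 4.85. At the other end, Clec4f spanned 0.99 and the mannose receptor Mrc1, which sinusoidal endothelial cells also express, spanned 0.77. The median range was 4.03 for the 9 recruited markers, 2.23 for the 16 shared markers and 1.58 for the 9 resident markers, beside 1.07 for all genes tested, whose 95th percentile was 2.96. Knockout vehicle 1 and 3 and wild-type vehicle 2 and 3 were the 4 highest arrays for 22 of the 34 genes, where 10.3% of all genes tested had that order. These 22 comprised 8 of the 9 recruited markers, 12 of the 16 shared markers and, among the 9 resident markers, Marco and Cd5l. The share of genes with that order describes these arrays and was counted after their separation had been seen. For Clec4f, Timd4, Vsig4 and Adgre1, wild-type IIAEK 3 was the only other array to lie above any of those 4 vehicle arrays.

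**Figure D1:**
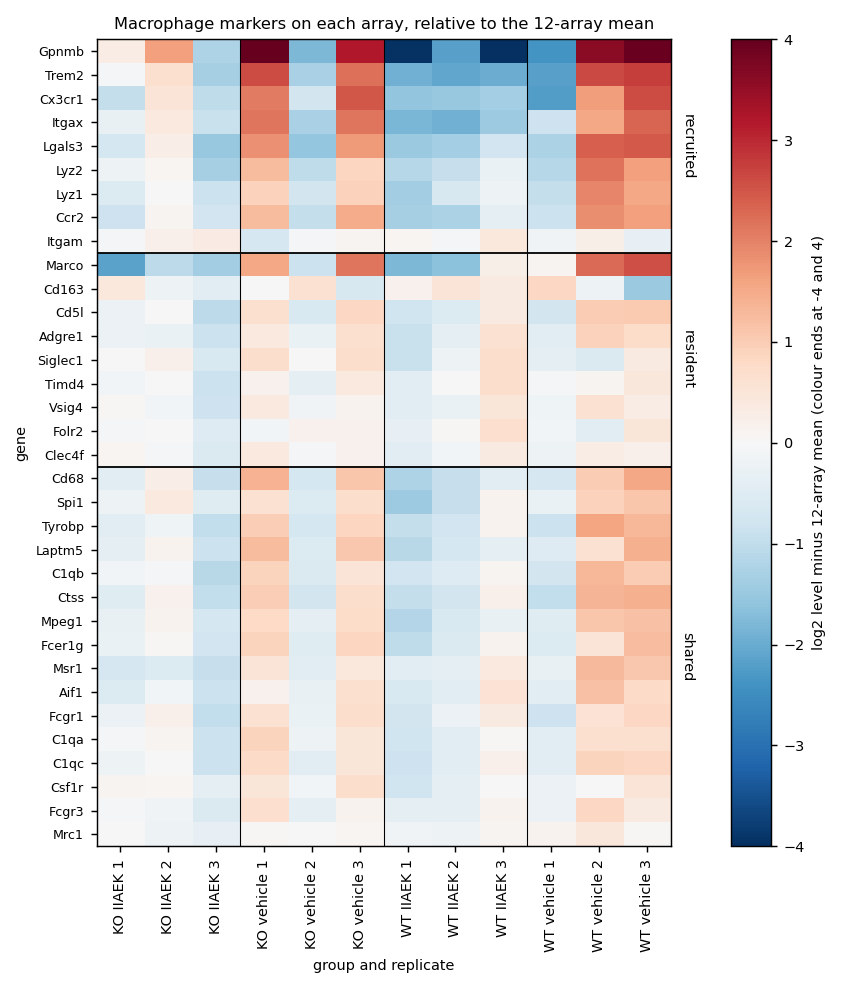
Each row is 1 of the 34 genes, each column 1 array, and the colour is the log2 level minus the gene's own 12-array mean. The recruited markers were highest on knockout vehicle 1 and 3 and wild-type vehicle 2 and 3, with Itgam as the exception, while most resident markers varied less (median range 1.58 against 4.03).

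Among the resident markers Marco, a scavenger receptor that binds bacteria and particles, varied most. Its level was 1.68, 2.76 and 2.42 in knockout IIAEK livers and 5.36, 2.94 and 5.95 in knockout vehicle livers. In wild type it was 2.03, 2.16 and 4.04 with IIAEK and 3.92, 6.08 and 6.40 with vehicle. Every knockout IIAEK array lay below every knockout vehicle array, as in 6.25% of all genes. In wild type the highest IIAEK array lay above the lowest vehicle array. Cd5l, a secreted protein that macrophages release and that binds lipids and pathogens, was at 6.57, 6.80 and 5.75 in knockout IIAEK livers and 7.45, 6.17 and 7.64 in knockout vehicle livers. The wild-type values of Cd5l were 6.01, 6.26 and 7.14 with IIAEK and 6.06, 7.82 and 7.85 with vehicle. The groups overlapped in both genotypes, because the third vehicle array of each (knockout vehicle 2 and wild-type vehicle 1) was as low as the IIAEK arrays.

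Clec4f and Timd4, which define resident Kupffer cells, spanned 0.99 and 1.56 log2 units. Clec4f, a galactose-binding lectin that in mouse liver is specific to Kupffer cells, measured 4.85, 4.69 and 4.19 in knockout IIAEK livers and 5.18, 4.69 and 4.96 in knockout vehicle livers. In wild type Clec4f measured 4.33, 4.66 and 5.12 with IIAEK and 4.56, 5.06 and 4.99 with vehicle. All groups overlapped. Only wild-type IIAEK 3 (5.12) lay among the 4 vehicle arrays that stood apart, and the rest of the arrays lay below them. Timd4, which binds phosphatidylserine on dying cells and marks long-lived resident macrophages, measured 0.27, 0.34 and -0.49 in knockout IIAEK livers and 0.56, 0.01 and 0.75 in knockout vehicle livers. For wild type the Timd4 levels were -0.05, 0.38 and 1.07 with IIAEK and 0.33, 0.49 and 0.82 with vehicle. These too overlapped throughout, and the highest single array was wild-type IIAEK 3. The 4 vehicle arrays that stood apart came next.

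Vsig4, a complement receptor of tissue-resident macrophages, stood at 2.59, 2.45 and 1.73 in knockout IIAEK livers and 2.93, 2.41 and 2.69 in knockout vehicle livers. In wild-type livers Vsig4 stood at 2.15, 2.28 and 3.03 with IIAEK and 2.38, 3.15 and 2.85 with vehicle. Folr2, a folate receptor of resident macrophages, was as even, with 2.33, 2.37 and 1.90 in knockout IIAEK livers and 2.27, 2.56 and 2.58 in knockout vehicle livers. The wild-type levels of Folr2 were 2.08, 2.45 and 3.08 with IIAEK and 2.30, 1.96 and 2.90 with vehicle, so the wild-type groups covered nearly the same span. Adgre1, an adhesion receptor used as a general marker of mouse macrophages, read 2.96, 2.93 and 2.33 in knockout IIAEK livers and 3.58, 2.92 and 3.84 in knockout vehicle livers. In wild type Adgre1 read 2.31, 2.82 and 3.79 with IIAEK and 2.72, 4.10 and 3.91 with vehicle. The 2 groups of each genotype overlapped for both Vsig4 and Adgre1. For both, only wild-type IIAEK 3 lay among the 4 vehicle arrays that stood apart, and the rest lay lower.

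Cd163, the scavenger receptor for haemoglobin bound to haptoglobin, ran the other way in part. Cd163 was at 1.43, 0.79 and 0.57 in knockout IIAEK livers and 1.01, 1.62 and 0.36 in knockout vehicle livers. In wild type it was at 1.17, 1.51 and 1.36 with IIAEK and 1.83, 0.80 and -0.49 with vehicle. Wild-type vehicle 3, the highest array for Marco, was the lowest of all 12 for Cd163, and wild-type vehicle 1 was the highest. Siglec1, a sialic acid-binding adhesion receptor, was at -1.38, -1.18 and -1.99 in knockout IIAEK livers, -0.68, -1.36 and -0.67 in knockout vehicle livers, -2.25, -1.56 and -0.67 in wild-type IIAEK livers and -1.77, -1.94 and -1.0 in wild-type vehicle livers. The knockout vehicle arrays of Siglec1 were mostly above the wild-type vehicle arrays, with 1 overlap.

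The recruited markers split the vehicle group of each genotype. Gpnmb stood at 0.60, 1.95 and -0.94 in knockout IIAEK livers and 4.34, -1.48 and 3.53 in knockout vehicle livers. Wild-type livers gave -3.63, -1.86 and -4.85 with IIAEK and -2.08, 3.91 and 4.25 with vehicle. In each genotype 2 vehicle arrays lay above all IIAEK arrays and the third among or below them. Trem2 stood at 1.71, 2.45 and 0.48 in knockout IIAEK livers and 4.41, 0.50 and 4.0 in knockout vehicle livers, against which the wild-type values were -0.13, -0.27 and -0.20 with IIAEK and -0.39, 4.45 and 4.57 with vehicle. For both genes every knockout IIAEK array was above every wild-type IIAEK array, an order that 13% of all genes had.

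Lgals3, the secreted lectin galectin-3 of activated macrophages, followed the same 4 arrays, with 3.62, 4.57 and 2.80 in knockout IIAEK livers and 6.16, 2.75 and 6.03 in knockout vehicle livers. In wild type Lgals3 gave 2.81, 2.97 and 3.54 with IIAEK and 3.05, 6.70 and 6.78 with vehicle. Itgax, the integrin CD11c of dendritic cells and some macrophages, gave -0.31, 0.36 and -0.91 in knockout IIAEK livers and 2.11, -1.32 and 2.11 in knockout vehicle livers. Its wild-type levels were -1.84, -1.95 and -1.46 with IIAEK and -0.85, 1.52 and 2.31 with vehicle. In wild type Itgax was therefore lower on all 3 IIAEK arrays than on all 3 vehicle arrays, the only one of the 34 genes for which those groups did not overlap. Among all genes tested, 5.7% had groups that did not overlap on that side.

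Monocyte receptors had the same split. Ccr2, the receptor for the chemokine Ccl2, was at -1.85, -0.91 and -1.78 in knockout IIAEK livers and 0.27, -1.96 and 0.48 in knockout vehicle livers. The wild-type levels of Ccr2 were -2.34, -2.27 and -1.39 with IIAEK and -1.86, 0.87 and 0.63 with vehicle. Cx3cr1 was at -2.08, -0.63 and -2.14 in knockout IIAEK livers and 0.96, -1.87 and 1.36 in knockout vehicle livers, and at -2.70, -2.64 and -2.50 in wild-type IIAEK livers and -3.37, 0.54 and 1.48 in wild-type vehicle livers. The lowest Cx3cr1 value of all 12 arrays was that of wild-type vehicle 1, so vehicle alone did not go with a high level.

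The lysozyme genes Lyz1 and Lyz2 are near-identical copies, and how far their probes read each other's transcripts was not tested. Lyz2, the form of macrophages and neutrophils, was at 0.53, 0.83 and -0.58 in knockout IIAEK livers and 2.0, -0.29 and 1.62 in knockout vehicle livers. In wild type Lyz2 was at -0.39, -0.17 and 0.47 with IIAEK and -0.41, 2.91 and 2.37 with vehicle. Lyz1, which Paneth cells of the intestine also make, was at 3.43, 3.99 and 3.12 in knockout IIAEK livers and 4.89, 3.23 and 4.91 in knockout vehicle livers. In wild type Lyz1 was at 2.59, 3.33 and 3.76 with IIAEK and 3.01, 5.91 and 5.53 with vehicle. The intestinal list medians of those 3 wild-type vehicle arrays were 1.83, 4.46 and 1.23. The median of the intestinal list was at most 0.25 in knockout vehicle livers and at least 1.23 in wild-type vehicle livers. Most tested genes of that list were kept through the wild-type vehicle group alone, and the part of intestinal RNA in Lyz1 was not tested. Itgam, the integrin CD11b of monocytes, neutrophils and macrophages, was the exception among the recruited markers. Its levels were 4.31, 4.58 and 4.72 in knockout IIAEK livers, 3.7, 4.31 and 4.50 in knockout vehicle livers, 4.47, 4.33 and 4.81 in wild-type IIAEK livers and 4.23, 4.62 and 4.07 in wild-type vehicle livers. Knockout vehicle 1, the highest array for Gpnmb, was the lowest for Itgam.

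The promoters of a few of these genes are shown because the genes with the widest and the narrowest spread can be compared there. RefSeq (GRCm38.p6) gave a promoter for 27 of the 34 genes, and windows of the 250 bases before the start were searched on both strands for the PU.1 core GAGGAA, the AP-1 site TGAGTCA and the MiT-family E-box CACGTG (none of which contains another). The PU.1 core was found in 14 of 27 genes (51.9%), beside 23.3% of all 32851 windows. The AP-1 letters were found in Cd68, Folr2 and Itgax (11.1%, beside 4.46%), and the E-box in 0 of 27 (beside 6.02%). Marco (chr1:120505025-120505274, minus strand) had the PU.1 core at position -146 from its start and Trem2 (chr17:48346151-48346400, plus strand) had it on the opposite strand at position -40. Gpnmb (chr6:49036268-49036517, plus strand), with the widest range, and Clec4f (chr6:83656117-83656366, minus strand), with the narrowest of the resident markers, had none of the 3 motifs. A match is only a run of letters, and binding was not measured. The windows follow on the strand of each gene, 5′ to 3′ and ending just before the start, with motif letters in capitals.
Gpnmb: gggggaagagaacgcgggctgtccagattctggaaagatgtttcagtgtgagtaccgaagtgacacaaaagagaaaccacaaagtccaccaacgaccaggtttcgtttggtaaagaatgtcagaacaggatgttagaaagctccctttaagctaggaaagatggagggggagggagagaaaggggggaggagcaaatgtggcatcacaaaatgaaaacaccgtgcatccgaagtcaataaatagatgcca
Trem2: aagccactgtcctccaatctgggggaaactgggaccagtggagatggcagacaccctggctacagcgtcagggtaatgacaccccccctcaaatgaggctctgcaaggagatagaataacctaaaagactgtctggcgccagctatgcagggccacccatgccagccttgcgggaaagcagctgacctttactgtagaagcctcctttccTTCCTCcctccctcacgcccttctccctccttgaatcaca
Marco: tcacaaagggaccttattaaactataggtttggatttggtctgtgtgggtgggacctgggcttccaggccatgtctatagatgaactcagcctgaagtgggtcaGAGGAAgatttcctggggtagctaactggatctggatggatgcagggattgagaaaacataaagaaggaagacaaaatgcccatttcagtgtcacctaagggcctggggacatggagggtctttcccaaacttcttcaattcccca
Clec4f: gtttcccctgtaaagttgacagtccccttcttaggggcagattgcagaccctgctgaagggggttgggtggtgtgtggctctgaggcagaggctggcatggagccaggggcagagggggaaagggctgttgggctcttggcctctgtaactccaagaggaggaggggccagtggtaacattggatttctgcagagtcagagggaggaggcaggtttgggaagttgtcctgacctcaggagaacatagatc

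Of the 16 shared markers, Csf1r, the receptor for the growth factor that keeps macrophages alive, had levels of 5.25, 5.22 and 4.73 in knockout IIAEK livers and 5.60, 5.02 and 5.83 in knockout vehicle livers. Wild-type Csf1r was at 4.33, 4.78 and 5.16 with IIAEK and 4.90, 5.14 and 5.64 with vehicle. The groups overlapped, and a second, dimmer Csf1r probe ran opposite to the first across the 12 arrays (Pearson r = -0.86), so the direction of Csf1r depends on the probe. Mpeg1, a pore-forming protein that macrophages use against bacteria, was at 4.64, 5.08 and 4.24 in knockout IIAEK livers and 5.73, 4.53 and 5.66 in knockout vehicle livers. In wild type Mpeg1 was at 3.75, 4.32 and 4.64 with IIAEK and 4.45, 6.06 and 6.11 with vehicle. The 4 vehicle arrays that stood apart were its highest, and a second Mpeg1 probe followed the first (r = 0.98).

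Msr1, a scavenger receptor for modified lipoproteins, was at -1.21, -1.08 and -1.46 in knockout IIAEK livers, -0.04, -0.97 and -0.10 in knockout vehicle livers, -0.96, -0.94 and -0.16 in wild-type IIAEK livers and -0.84, 0.75 and 0.55 in wild-type vehicle livers. All 3 knockout IIAEK arrays of Msr1 lay below all knockout vehicle arrays and below all wild-type IIAEK arrays. Of all genes tested, 6.25% had the first order and 14.6% the second. Laptm5, a lysosomal membrane protein of blood cells, was at 0.65, 1.17 and 0.17 in knockout IIAEK livers and 2.30, 0.48 and 2.10 in knockout vehicle livers. Its wild-type levels were -0.09, 0.32 and 0.66 with IIAEK and 0.51, 1.65 and 2.45 with vehicle. C1qa, a chain of the complement protein C1q that macrophages secrete, was at 2.85, 2.99 and 2.02 in knockout IIAEK livers, 3.79, 2.70 and 3.37 in knockout vehicle livers, 2.09, 2.43 and 2.94 in wild-type IIAEK livers and 2.45, 3.53 and 3.52 in wild-type vehicle livers. Laptm5 and C1qa overlapped between IIAEK and vehicle in both genotypes.

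Mrc1 hardly varied, with 3.17, 2.98 and 2.86 in knockout IIAEK livers, 3.20, 3.15 and 3.23 in knockout vehicle livers, 3.04, 2.97 and 3.28 in wild-type IIAEK livers and 3.31, 3.63 and 3.23 in wild-type vehicle livers. Spi1 read -4.77, -4.17 and -5.06 in knockout IIAEK livers, -3.96, -5.10 and -3.87 in knockout vehicle livers, -6.03, -5.49 and -4.44 in wild-type IIAEK livers and -4.84, -3.65 and -3.48 in wild-type vehicle livers. It was above background on 2 knockout IIAEK, 3 knockout vehicle, 1 wild-type IIAEK and 2 wild-type vehicle arrays, so its lowest values are near the detection limit. The other 9 shared markers were Cd68, C1qb, C1qc, Fcgr1, Fcgr3, Fcer1g, Tyrobp, Aif1 and Ctss, whose ranges over the 12 arrays ran from 1.42 (Fcgr3, an immunoglobulin receptor) to 2.78 (Cd68, a lysosomal glycoprotein).

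**Figure D2:**
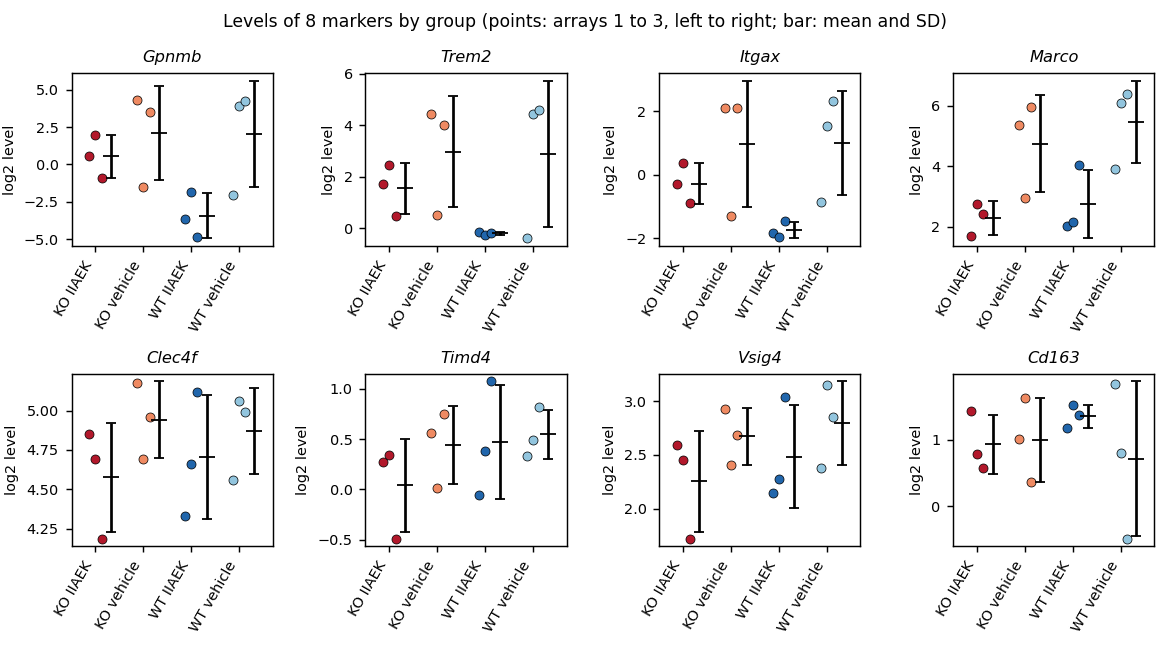
Log2 levels of single genes (vertical axes) are plotted by group, 1 point per array with a bar for the mean and SD of the 3 arrays. The vehicle groups of Gpnmb, Trem2 and Marco are split into high and low arrays, whereas the Clec4f points of all groups lie between 4.19 and 5.18.

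Set against each other within each array, the median of the 9 resident markers and that of the 9 recruited markers, each gene taken relative to its own 12-array mean, changed order between arrays. Resident minus recruited was 0.23, -0.34 and 0.18 in knockout IIAEK livers (mean 0.02 ± 0.31, SD, n = 3), against -1.44, 0.88 and -1.34 in knockout vehicle livers (-0.63 ± 1.31). In wild type the difference was 1.06, 1.15 and 1.26 with IIAEK (1.16 ± 0.10), against 0.98, -1.65 and -1.89 with vehicle (-0.85 ± 1.59). The recruited markers exceeded the resident ones on the 4 vehicle arrays that stood apart and on knockout IIAEK 2. On those 4 vehicle arrays both medians were above the genes' own means, the resident by 0.29 to 0.44 and the recruited by 1.71 to 2.33. Elsewhere both were below, except on wild-type IIAEK 3 and knockout IIAEK 2, where 1 was above. In resident minus recruited, all 3 wild-type IIAEK arrays lay above all 3 knockout IIAEK arrays. The recruited median itself ranged from -1.50 to 2.33 over the 12 arrays and the resident median from -0.83 to 0.48. No test was made on these medians.

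**Figure D3:**
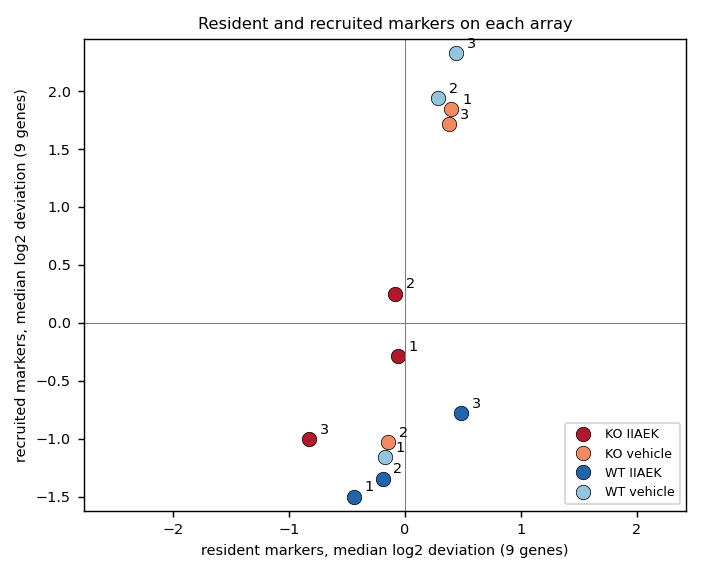
Each point is 1 array, with the median of the 9 resident markers on the horizontal axis and that of the 9 recruited markers on the vertical axis, both in log2 relative to each gene's 12-array mean. Knockout vehicle 1 and 3 and wild-type vehicle 2 and 3 lie apart on the recruited axis (1.71 to 2.33). On the resident axis they lie at 0.29 to 0.44, below wild-type IIAEK 3 (0.48) and above the rest, which are all negative.

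The effect of IIAEK in knockout liver asks what the peptide does without Akp3. Of the 34 genes, 33 had lower values with IIAEK (44.3% of all genes tested were lower), with a median log2 difference of -0.71 beside 0.04 for all genes tested. All 9 resident, 8 of 9 recruited and all 16 shared markers were lower, with medians of -0.42, -1.25 and -0.68, and Itgam was the gene that was not (0.37, SE 0.24). Among the 16, Csf1r was at -0.42 by the probe used and at 0.41 by its dimmer second probe. None of the 34 passed the adjusted p threshold of 0.05 in limma, where 0% of all genes did. Marco had the smallest p, at a log2 difference of -2.46 (SE 0.87, a 5.52-fold lower signal, unadjusted p = 0.0163 in limma, adjusted p = 0.664). It was the only one of the 34 with an unadjusted p under 0.05 and a lower value, a class that held 2.67% of all genes, and 0 had one with a higher value (3.62% of all genes). Without knockout vehicle 2, the low vehicle array, 11 of the 34 had an unadjusted p under 0.05 and a lower value (8.85% of all genes), and none was called. With limma's array weights, which count arrays that deviate for less, Marco passed at -3.01 (SE 0.64, adjusted p = 0.0476), and 1.37% of all genes were then called lower and 1.69% higher. Msr1 followed at -0.88 (SE 0.41, adjusted p = 0.664 in limma), and Laptm5 and C1qa were at -0.96 (SE 0.55) and -0.67 (SE 0.39) with the same adjusted p. Marco and Msr1 were the genes whose groups did not overlap, lower with IIAEK, as in 6.25% of all genes, and none of the 34 lay wholly higher, as 8.77% of all genes did. When knockout vehicle 1 and 3 and wild-type vehicle 2 and 3 were left out, so that each genotype kept 1 vehicle array, the median of the 34 genes was 0.14, and Laptm5 was at 0.19. In that setting 7 of 9 resident, 0 of 9 recruited and 5 of 16 shared markers were lower. The arrays dropped there are those at the high end of the first component. Red blood cell genes were lower with IIAEK in knockout liver for 4 of 5 tested, with groups that did not overlap (median -1.33; Hba-a1, a haemoglobin chain, at -1.33, SE 0.45, adjusted p = 0.664 in limma), against 1 of 5 in wild type (median 0.10). The fifth, Alas2, which makes haem in red cell precursors, was at 1.33 (SE 0.63). The part of blood content in the macrophage values was not tested.

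In wild-type liver the same question gave lower values with IIAEK for 30 of the 34 genes (44.8% of all genes), with a median log2 difference of -0.86 beside 0.05 for all genes tested. The recruited markers were lower in 8 of 9 cases with a median of -2.16, the shared markers in 16 of 16 with -0.86, and the resident markers in 6 of 9 with -0.17. Csf1r, counted as lower, was at -0.47 by the probe used and at 0.38 by its second probe. None of the 34 passed over all genes in limma (lowest adjusted p = 0.393), where 0.00379% of all genes did. An unadjusted p under 0.05 with a lower value was reached by 11 of the 34, beside 6.63% of all genes, and with a higher value by 0, beside 6.02%. Those 11 were 6 recruited markers, 4 shared markers and Marco. The shared markers include Spi1, which was above background on 1 wild-type IIAEK and 2 wild-type vehicle arrays. Spi1 entered the fit through knockout vehicle alone, so its difference here involves values near the detection limit. The count of 11 became 1 without wild-type vehicle 2 (2.69% of all genes), 1 without wild-type vehicle 3 (3.28%), 3 without wild-type IIAEK 1 (4.04%) and 4 without wild-type IIAEK 2 (3.9%). With the replicate number as a block it was 6 (5.68% of all genes). Gpnmb had the widest difference, -5.47 (SE 1.83, a 44.4-fold lower signal, adjusted p = 0.393 in limma), and Marco was at -2.72 (SE 0.87), Itgax at -2.74 (SE 0.94) and Mpeg1 at -1.31 (SE 0.47), all with that adjusted p. For Itgax the groups did not overlap, as in 5.7% of all genes on the lower side, and 0 of the 34 lay wholly higher (7.26% of all genes).

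The number of genes called in this comparison turned on 1 array, wild-type vehicle 1. Leaving it out keeps wild-type vehicle 2 and 3, both at the high end of the first component (81.12 and 88.09). Without wild-type vehicle 1, 17 of the 34 genes were called lower in limma, where 8.02% of all genes were: 8 recruited markers, 8 shared markers and Marco. None of the 34 was called higher, where 6.89% of all genes were. Gpnmb was then at -7.52 (SE 1.55, a 184-fold lower signal, adjusted p = 0.0294), Trem2 at -4.71 (SE 0.97, adjusted p = 0.0294) and Marco at -3.50 (SE 0.84, adjusted p = 0.0316). Wild-type vehicle 1 is the array with pancreas transcripts and lies at the low end of the first component (-57.34), and the part of either in the level of these genes was not tested. Leaving out any other array gave 0 calls among the 34. Without the 4 vehicle arrays that stood apart the median of the 34 genes was 0.12, and 3 of 9 recruited, 2 of 9 resident and 6 of 16 shared markers were lower.

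**Figure D4:**
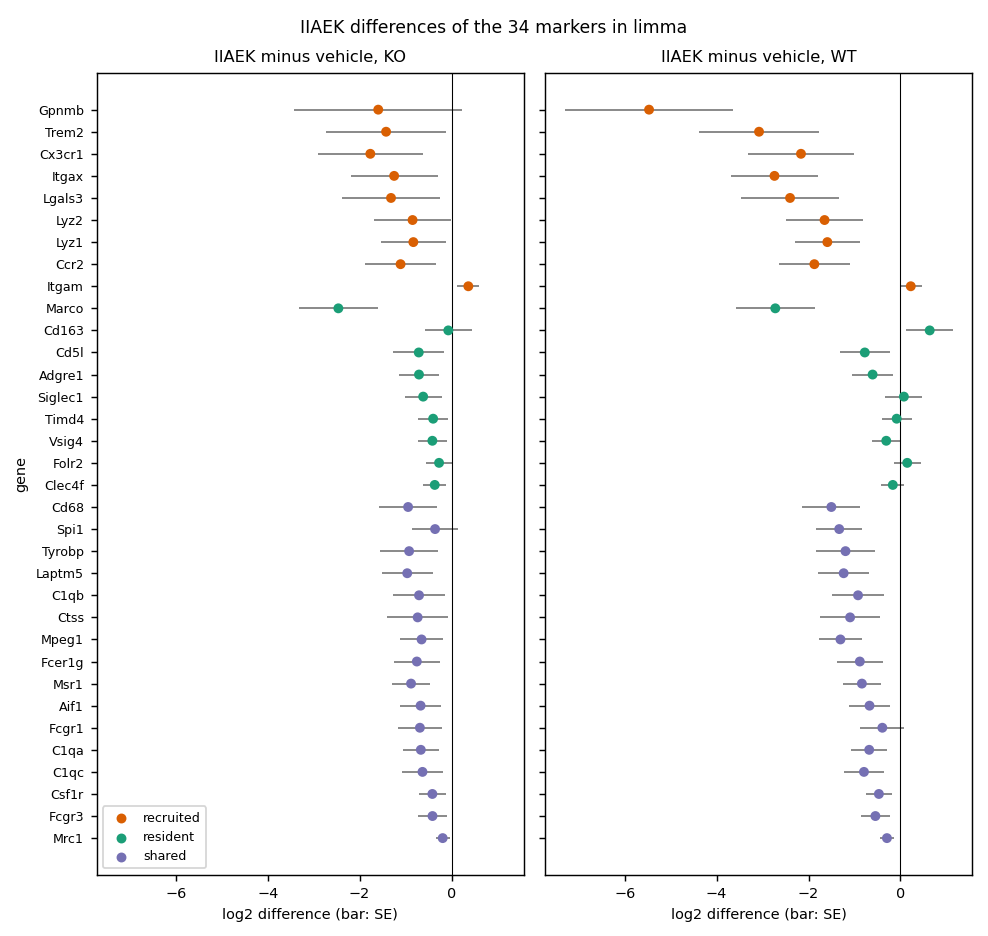
Log2 differences of IIAEK minus vehicle with their SE are shown for each of the 34 genes in knockout and wild-type liver, grouped by list. The recruited markers have the lowest median of the 3 lists, at -1.25 in knockout and -2.16 in wild-type liver, with Itgam above 0 in both. Gpnmb lies furthest below 0 in wild-type liver (-5.47) and is at -1.60 in knockout, where the resident marker Marco lies furthest below 0 (-2.46).

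Loss of Akp3 was compared under each treatment, and both comparisons share their arrays with those above. Under IIAEK the median log2 difference of knockout minus wild type over the 34 genes was 0.01, beside -0.02 for all genes, and 16 of 34 were lower in knockout (52.7% of all genes). All 9 recruited markers had values above 0 (median 0.56) and all 9 resident markers values below 0 (median -0.23). These counts include Itgam at 0.001 (SE 0.24) and Siglec1 at -0.03 (SE 0.40), which hardly differed. On slide 1, with 1 array per group, 8 of 9 recruited markers were higher but only 1 of 9 resident markers was lower. None passed in limma, where 0.00757% of all genes did, and none had an unadjusted p under 0.05 (4.53% of all genes on the lower side and 3.3% on the higher). Gpnmb had the smallest p (3.98, SE 1.83, a 15.8-fold higher signal, adjusted p = 0.628 in limma), and Trem2 stood at 1.75 (SE 1.31), Itgax at 1.47 (SE 0.94) and Msr1 at -0.57 (SE 0.41). Groups that did not overlap were found for Gpnmb, Trem2, Itgax and Cx3cr1 on the higher side (13% of all genes) and for Msr1 on the lower side (14.6% of all genes), so the 34 genes held no larger share than all genes did.

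Under vehicle no marker set knockout apart from wild-type liver beyond the spread of the arrays. The median log2 difference was -0.13, beside -0.05 for all genes, and 22 of 34 genes were lower in knockout, where 56.8% of all genes were. None passed in limma, where 0.00379% of all genes did, none had an unadjusted p under 0.05 (3.79% of all genes on the lower side and 2.83% on the higher), and none had groups that did not overlap (5.29% and 3.15% of all genes). Siglec1 had the smallest p, at 0.67 (SE 0.40, adjusted p = 0.737 in limma), and Msr1, Mrc1 and Csf1r were at -0.52 (SE 0.41), -0.20 (SE 0.16) and 0.26 (SE 0.29). The slides disagreed here: the median was -0.88 on slide 2 and 1.37 on slide 1, which holds 1 array per group and allows no test.

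Whether the IIAEK effect depends on Akp3 was tested as the effect in knockout minus that in wild type. The median over the 34 genes was 0.15, beside 0.01 for all genes, and 10 of 34 were below 0 (48.9% of all genes), with all 9 recruited markers above 0 (median 0.80) and 7 of 9 resident markers below 0 (median -0.20). The direction of the recruited and shared markers depended on the arrays used. On slide 1 alone 8 of 9 recruited and 13 of 16 shared markers were below 0, and without knockout vehicle 2 it was 3 of 9 recruited and 13 of 16 shared markers, where all 12 arrays gave 0 of 9 and 3 of 16. None passed in limma (adjusted p = 1 for all 34), where 0% of all genes did, and none had an unadjusted p under 0.05 (0.67% of all genes on the lower side and 0.894% on the higher). Gpnmb had a difference of 3.88 (SE 2.59), Spi1 of 0.97 (SE 0.70), Itgax of 1.49 (SE 1.34) and Siglec1 of -0.69 (SE 0.57). An unequal effect of IIAEK in the 2 genotypes was therefore not detectable with these arrays.

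Genes that attract or sustain macrophages were likewise highest, as a list, on 2 of the 3 vehicle arrays of each genotype. Of 11 ligands 9 were tested, and the growth factors Csf2 and Csf3 were above background on 0 arrays. With IIAEK 7 of 9 were lower in knockout liver (median -1.04) and 8 of 9 in wild-type liver (median -1.43), and none passed in limma. Ccl3, a chemokine for monocytes and macrophages, was at -1.25 (SE 0.93, adjusted p = 0.666 in limma) in knockout and -3.00 (SE 0.93, adjusted p = 0.393) in wild type, and Ccl4, its close relative, was at -2.50 (SE 0.79) in wild type. Cxcl12, a chemokine that retains blood cells in tissue, had the smallest p of the list in knockout and was higher with IIAEK, at 0.78 (SE 0.34, adjusted p = 0.664 in limma) in knockout and 0.61 (SE 0.34, adjusted p = 0.424) in wild type. Its knockout groups did not overlap, at 5.71, 5.48 and 5.63 with IIAEK and 4.51, 5.43 and 4.54 with vehicle. On the higher side 8.77% of all genes had groups that did not overlap in this comparison. The per-array medians of the ligands ran from -0.69 to -0.03 in knockout IIAEK livers, -1.02 to 1.58 in knockout vehicle livers, -1.19 to -0.60 in wild-type IIAEK livers and -0.67 to 1.36 in wild-type vehicle livers.

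Of the 10 macrophage transcription factors, 9 were lower with IIAEK in knockout liver (median -0.29) and 8 in wild-type liver (median -0.62), none past the threshold. Id3, a factor that Kupffer cells need for their development, went the other way in wild type. Its levels were 3.60, 3.35 and 2.95 with IIAEK and 2.24, 2.39 and 2.78 with vehicle (0.83, SE 0.24, adjusted p = 0.393 in limma), while in knockout livers they were 3.43, 3.18 and 2.71 with IIAEK and 2.74, 3.17 and 3.15 with vehicle (0.09, SE 0.24). Irf8, a factor of monocyte and dendritic cell development, was at -0.71 (SE 0.51) in knockout and -1.21 (SE 0.51) in wild type. The 8 genes of iron and red cell recycling had medians of 0.03 in knockout and -0.10 in wild type, and Hmox1 and Blvrb differed in sign. Hmox1, which opens haem, was at -1.48 (SE 0.69) in knockout and -1.69 (SE 0.69) in wild type, and Blvrb, a biliverdin reductase, was at 0.45 (SE 0.26) in knockout and 0.90 (SE 0.26) in wild type.

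Several other cell type lists varied over the same arrays. Monocyte genes (10 of 11 tested; Ccr1 above background on 0 arrays) had per-array medians from -0.72 to -0.14 in knockout IIAEK livers and -0.59 to 1.08 in knockout vehicle livers. In wild type they ran from -0.98 to 0.02 with IIAEK and from -0.66 to 1.24 with vehicle. Within that list 8 of the 10 genes tested were lower with IIAEK in knockout and 7 in wild type. Ly6c1 and Ly6c2, surface antigens of classical monocytes, had higher values with IIAEK. The differences were 0.45 (SE 0.35) and 0.46 (SE 0.37) in knockout and 0.40 (SE 0.35) and 0.37 (SE 0.37) in wild type, none past the threshold. These 2 genes followed each other across the arrays, and how far their probes read each other's transcripts was not tested. Nr4a1, a nuclear receptor of patrolling monocytes and also an early response gene, was at -1.82 (SE 0.60, adjusted p = 0.664 in limma) with IIAEK in knockout and -1.72 (SE 0.60, adjusted p = 0.393) in wild type. F13a1, a clotting factor subunit that monocytes carry, was at -2.02 (SE 1.12) in knockout and -2.90 (SE 1.12) in wild type. Neutrophil genes (8 of 12 tested) ran from -0.52 to -0.10 in knockout IIAEK livers, -1.01 to 1.31 in knockout vehicle livers, -0.89 to -0.05 in wild-type IIAEK livers and -0.93 to 1.60 in wild-type vehicle livers. Dendritic cell genes (7 of 8 tested; Xcr1 above background on 0 arrays) ran from -0.76 to 0.06 in knockout IIAEK livers, -0.53 to 0.88 in knockout vehicle livers, -0.73 to -0.02 in wild-type IIAEK livers and -0.23 to 0.84 in wild-type vehicle livers. Stellate cell genes (8 of 8) ran from -0.34 to 0.33 in knockout IIAEK livers, 0.01 to 0.46 in knockout vehicle livers, -0.59 to -0.28 in wild-type IIAEK livers and -0.57 to 0.63 in wild-type vehicle livers. In each of these 4 lists the highest IIAEK array of a genotype lay below its highest vehicle array. The per-array medians of hepatocyte genes were lowest on the 4 vehicle arrays that stood apart, at -0.22 and -0.43 on knockout vehicle 1 and 3 and -0.12 and -0.35 on wild-type vehicle 2 and 3, and the other 8 arrays lay from -0.03 to 0.48. Liver endothelial genes had medians from -0.34 to 0.22 over the 12 arrays, and 2 of them ordered those 4 arrays in opposite ways. Lyve1, a hyaluronan receptor of sinusoidal endothelium, was highest there, at 2.23 and 2.11 on knockout vehicle 1 and 3 and 2.14 and 2.41 on wild-type vehicle 2 and 3, where no other array exceeded 1.02. Clec4g was lowest there, at 4.83 and 4.54 on knockout vehicle 1 and 3 and 4.93 and 4.44 on wild-type vehicle 2 and 3, where no other array was below 5.05. No other gene of that list had those 4 arrays as its 4 highest or 4 lowest. Red blood cell genes (5 of 6 tested) had medians of -0.78, -1.10 and -0.81 in knockout IIAEK livers and 0.86, -0.18 and 0.59 in knockout vehicle livers. In wild type they had 0.15, -0.35 and 1.05 with IIAEK and -0.78, 0.48 and 0.84 with vehicle. Lymphocyte genes (6 of 8 tested) had medians from -0.12 to 0.57 in knockout IIAEK livers, -0.29 to 0.69 in knockout vehicle livers, -0.57 to 0.11 in wild-type IIAEK livers and -0.27 to 0.03 in wild-type vehicle livers. Summed over the list, the recruited markers had log2 levels of 5.51 to 6.27 in knockout IIAEK livers, 5.30 to 7.39 in knockout vehicle livers, 5.23 to 5.82 in wild-type IIAEK livers and 5.24 to 7.90 in wild-type vehicle livers. The summed monocyte genes, in which the brightest genes weigh most, had 7.84 to 8.00 in knockout IIAEK livers, 7.79 to 8.28 in knockout vehicle livers, 8.10 to 8.44 in wild-type IIAEK livers and 8.08 to 8.44 in wild-type vehicle livers. The part of other cell types in the macrophage values was not tested.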

How the data were processed

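Liver RNA was measured on one-colour (Cy3) Agilent arrays, read with Feature Extraction 10.7.3.1 per the file headers. The deposited processed signal is an intensity per spot with background subtracted by the authors' software and no scaling between arrays. Each array held 62976 spots, 59305 of them not controls and 0 saturated. Non-uniform spots were left out and the spots of a probe averaged (56605 probes). The files name probes by transcript. RefSeq transcripts gave symbols to 32994 probes (22911 symbols). The headers name mm9 and the name table GRCm38.p6, so the table served for names, and promoter coordinates are those of GRCm38.p6.

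Log2 signals were shifted by each array's 75th percentile. A gene entered the fit through its brightest probe, provided that 1 group or more had that probe well above background in full (26405 genes). Limma 3.58.1 (R 4.3.3) was fitted to all 12 arrays with 1 mean per group (8 residual and 2.73 prior degrees of freedom), and p is two-sided with Benjamini-Hochberg adjustment over all genes at a threshold of 0.05. The 34 genes, the lists and the tests were chosen with earlier results of these data known. Single-array values are given for the main resident and recruited markers, Csf1r, Adgre1 and the 4 genes with the smallest p per comparison. Of other lists up to 2 genes with the smallest p are named, and none where no result turns on the list. Some further genes, such as Lyve1, Clec4g, Ly6c1 and Ly6c2, are named for their direction or their order across the arrays. The number of arrays limits the precision.

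The deposited series table holds log2 values, which when set against the scanner files were log2 signals shifted to the 75th percentile and centred on each probe's median (r = 1 for each array after rounding). Its column medians were 0.0147, -0.0485 and 0.053 for knockout IIAEK, -0.1276, -0.0517 and -0.1098 for knockout vehicle, 0.1551, 0.0672 and 0.0714 for wild-type IIAEK and 0.1716, -0.0389 and -0.1539 for wild-type vehicle. How the authors made it is not given in the sources used here. One label field gives weeks for the IIAEK samples where titles and series description give 14 days, which were used.

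Alternatives changed the background correction (normexp, offset 50), the scaling (quantile), the source (the deposited log2 table), the filter (none, or probes detected on 12 arrays) and the use of several probes (their mean). Others took the slide or the replicate number as a block, fitted slide 2 or only the groups being compared, used the trend and robust options or array weights, or left out single arrays or the 4 vehicle arrays named above. Slide 1 alone was added after the data had been seen.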

Additional observations from a re-analysis of the deposited data

How the results depend on the processing

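Under the alternatives run, 0 of the 34 genes passed in limma with 2 exceptions. With array weights 1 gene (Marco) was called for IIAEK in knockout, and for IIAEK in wild type the number called when 1 array was left out ran from 0 to 17. The median log2 difference moved beyond the spread between replicates (pooled SD 0.66) in these cases: without the 4 vehicle arrays that stood apart it was 0.14 for IIAEK in knockout, where Laptm5 turned to 0.19, and 0.12 for IIAEK in wild type. For knockout against wild type under vehicle it was -0.88 on slide 2 alone and 1.37 on slide 1 alone, and for the difference between the IIAEK effects it was -0.76 on slide 1 alone. Slides and scan days cannot be told apart. The cause of these shifts was not tested. With 1 array left out, the medians ran from -1.09 to -0.44 for IIAEK in knockout, from -1.36 to -0.55 for IIAEK in wild type, from -0.72 to 0.20 for the genotypes under vehicle, from -0.13 to 0.33 for the genotypes under IIAEK and from -0.22 to 0.63 for the difference between the IIAEK effects. With the replicate number as a block 0 of the 34 genes were called in each comparison and the medians stayed at -0.71 (IIAEK in knockout) and -0.86 (IIAEK in wild type), and in wild type 6 genes had a lower value with an unadjusted p under 0.05 (5.68% of all genes), against 11 (6.63%) without the block. The numbers do not pair the samples: 18 pairs of arrays with one number had correlations of their deviations from -0.55 to 0.65 (median 0.04), 8 of them over 0.1. Over all genes, limma called 2119 lower and 1820 higher for IIAEK in wild type without wild-type vehicle 1, against 1 with all arrays, and 361 lower and 446 higher for IIAEK in knockout with array weights, against 0. Dim probes limit Spi1 and the second probes of Itgax and Siglec1, which were above background on 0 arrays.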

Other observations

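Genes of lipid-associated macrophages that are not among the 34 were picked after the Trem2 and Gpnmb values had been seen, so they describe the pattern and lend it no independent weight. All 10 of these genes (Spp1, Cd9, Fabp5, Lpl, Lipa, Cd63, Ctsd, Mmp12, Atp6v0d2 and Ms4a7) had lower values with IIAEK in both genotypes, with a median log2 difference of -1.0 in knockout (adjusted p from 0.664 to 0.715 in limma) and -1.77 in wild type (0.393 to 0.553). Mmp12, the macrophage elastase, was at -0.58, 0.66 and -0.10 in knockout IIAEK livers and 2.81, -0.85 and 3.02 in knockout vehicle livers. In wild type Mmp12 was at -1.32, -1.93 and -1.27 with IIAEK and -0.79, 3.89 and 3.77 with vehicle, so the vehicle arrays split as they did for Gpnmb. Fabp5, a fatty acid-binding protein, did not follow that split in knockout. It was at 2.29, 3.08 and 2.55 with IIAEK and at 4.94, 4.69 and 4.62 with vehicle, with knockout vehicle 2 as high as the others. In wild type Fabp5 was at 2.96, 3.01 and 3.06 with IIAEK and 2.99, 5.54 and 5.5 with vehicle. Among 7 adipocyte genes, chosen at the same time, Adipoq and Plin1 were above background on 0 of 12 arrays and Cfd on 4. Fabp4, which macrophages and endothelial cells also express, was at 2.83, 2.95 and 2.60 in knockout IIAEK livers and 4.34, 2.96 and 3.84 in knockout vehicle livers. In wild type Fabp4 was at 3.09, 2.46 and 2.60 with IIAEK and 2.49, 4.45 and 4.33 with vehicle, so its 4 highest arrays were those of Gpnmb. Cidec, a lipid droplet protein that hepatocytes also make, had a log2 difference with IIAEK of -2.16 (SE 0.71, adjusted p = 0.664 in limma) in knockout and -0.57 (SE 0.71, adjusted p = 0.724) in wild type. Under vehicle Cidec differed by 1.70 (SE 0.71, adjusted p = 0.737) between knockout and wild type.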
